A study of Mus musculus with 9 samples.

Results

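The genes examined here copy DNA or open the S phase of the cell cycle, from origin licensing to nucleotide supply and the G1/S switch. Of 45 such genes, 44 had at least 1 probe set whose platform annotation gives that symbol and no other, among 18193 genes named in this way on the array. They had 95 rows, where a row is the set of 9 values of a probe set. Chaf1a is not analysed here. Whole mouse colons were profiled on Affymetrix whole-genome arrays, 5 from mutants and 4 from wildtypes. Mutants were Rosa26-CreERT2-Ptch1fl/fl, in which tamoxifen lets Cre delete exons 8 and 9 of Ptch1, the receptor that holds Hedgehog signalling off. Wildtypes were Rosa26-CreERT2-Ptch1+/+, so both groups carried the Cre. All mice had a mixed C57BL/6 X Balb/c background, both groups received 1 mg tamoxifen on 5 consecutive days, and colons of both were taken at day 12. CreERT2 from Rosa26 acts body-wide, so the deletion is not restricted to a cell type of the colon. The labels do not state that each array came from a separate animal, so p-values measure the spread between these arrays, which may be technical. In a whole organ, a change in the number of dividing cells and a change in RNA per cell cannot be told apart.

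DNA replication is prepared in G1, when the origin recognition complex, Cdc6 and Cdt1 load the ring-shaped MCM helicase onto origins. In S phase Cdc45 and GINS switch the helicase on, polymerases copy both strands with the help of the PCNA clamp, and ribonucleotide reductase supplies the building blocks. In the colon these genes are known to be used mainly by dividing cells at the base and middle of the crypts. Many of them are switched on by E2F transcription factors once the retinoblastoma proteins are inactivated. Cyclin E and its kinase take part in that inactivation.

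The names of the rows limit what can be said of a single gene. Among genes with at least 2 rows at an unadjusted p under 0.05, rows of opposite sign were present in 773 of 1355 genes outside the replication group (57.1%) and in 9 of 10 replication genes. The exception was Rrm1, whose 3 such rows all had the same sign. For most genes with such rows, inside and outside the group, a shared symbol thus did not go with a shared direction. Whether a row measures the gene it is named after was not tested. The roles stated below are known roles of the named genes and were not read from the rows. Mean log2 values had a median range of 2.82 across the rows of a replication gene and 2.57 across those of another gene, where probe sets of a gene need not share a level. Their strength of difference was closer, with a median range of 27.1 percentile points against 35.3 in other genes with several rows. Each row is described by the strength of its difference between the groups, and no direction, fold or level is given for a gene name. Each call below is a call of the row that carries the name.

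The question addressed is whether the rows of replication genes differed between Ptch1-mutant and wildtype colons, and at which step of replication. They ranked above the median row of other genes in strength, with modest numbers past the test. Earlier results of these data were known when the genes were chosen, so this rank is a description and not a test of the group. The strength of a row is the absolute moderated t of limma, given as a percentile among the 34945 rows with 1 symbol. The median replication row lay at percentile 77.0 (quartiles 53.9 and 89.5), where the median row of all other genes lay at 49.9 (upper quartile 74.9). In the top 10% of all rows lay 23 of the 95 replication rows (24.2%, against 9.96% of other rows), and 22 (23.2%, against 50.1%) lay in the lower 50%. At a limma adjusted p under 0.05, 10 of 95 rows passed (10.5%), where 5.18% of the 34850 rows of other genes did (4.51% of all 45037 probe sets tested). All 10 calls were lost with array number as a covariate, without wildtype replicate 3 (array 9) and without wildtype replicate 4 (array 10), as given further on. Replicates are numbered here by array number within each group, since the labels number none. At an unadjusted p under 0.05 there were 45 of 95 rows (47.4%), against 21.0%. At an adjusted p under 0.1 there were 22 rows (23.2%), against 9.81%. Mutant and wildtype arrays did not overlap in 16 rows (16.8%), against 9.76% of other rows.

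The 10 rows past the threshold belonged to 10 of the 44 genes, against 8.40% of other genes with a passing row. They were Pole2, Pold2, Mcm3, Rrm1, Cdc6, Cdc45, Gins2, Rfc5, Chaf1b and Pcna. Of 11 replication genes with a single row, 4 passed, against 5.10% of other single-row genes. Of 33 with several rows, 6 passed in a row, against 11.8% of other such genes, and 0 had 2 or more rows past the threshold by limma, against 2.53%. At an unadjusted p under 0.05, 10 of the 33 had at least 2 rows, against 1355 of 8977 other genes with several rows. In 18 of the 33 every row lay above the 50th percentile (54.5%), against 22.6% of other genes with several rows. In 3 genes, Gmnn, Orc6 and Ung, each with 1 row, the row lay below the 50th percentile. In 12 genes no row reached an unadjusted p under 0.05, namely Ccne2, Cdt1, E2f1, Gmnn, Orc6, Pola2, Pole, Prim2, Rfc3, Rfc4, Rpa1 and Ung. The share of such genes outside the group is not given here.

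**Figure D1:**
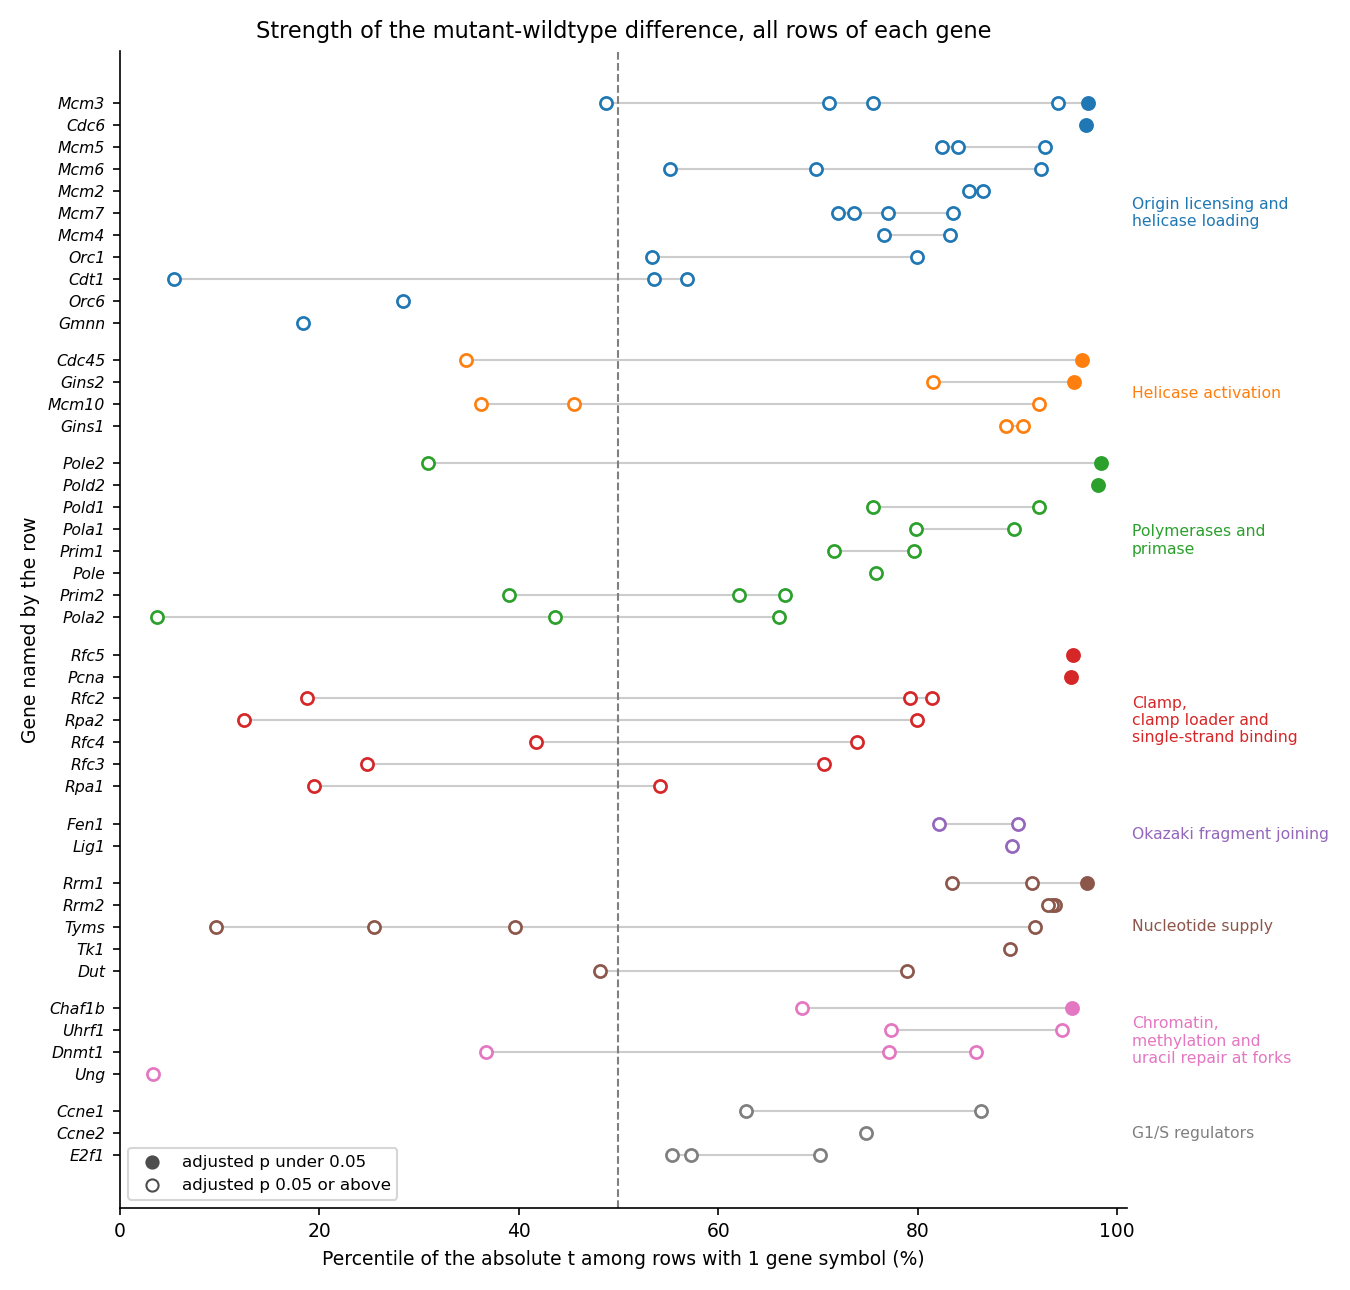
Each point is a row of a replication or S-phase gene, placed by the percentile of its absolute t (x axis, percent) among rows with 1 gene symbol, with genes on the y axis grouped by step. Filled points are the 10 rows with a limma adjusted p under 0.05, grey lines join the rows of a gene, and the dashed line marks the 50th percentile, below which 22 of 95 rows lie.

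Origin licensing and helicase loading held the most rows. The 11 genes had 27 rows with a median at percentile 76.7, of which 4 lay in the lower 50%. Of the 27 rows, 2 passed (7.41%, limma adjusted p under 0.05) and 12 were at an unadjusted p under 0.05 (44.4%). Here and in the steps below, such counts stand beside 5.18% and 21.0% of the rows of other genes. Cdc6, the loader that recruits MCM rings together with Cdt1, had a single row at percentile 96.9 (absolute t 4.78, limma adjusted p = 0.0342). Mcm3, a subunit of the MCM ring, had 5 rows. The strongest lay at percentile 97.1 (absolute t 4.90, limma adjusted p = 0.0313), the next at 94.0 (adjusted p = 0.0580), and the others at 75.6, 71.1 and 48.8. The groups did not overlap in either of the 2 strongest Mcm3 rows.

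The other MCM subunits missed the threshold, with all of their rows at percentile 55.2 or above. The 3 rows of Mcm5 lay at 92.8, 84.0 and 82.4, with a smallest limma adjusted p of 0.0705. Those of Mcm6 lay at 92.4, 69.8 and 55.2 (smallest adjusted p = 0.0750). Mcm2 had rows at 86.6 and 85.2, Mcm4 at 83.3 and 76.7, and the 4 rows of Mcm7 lay between 72.1 and 83.6. Counting Mcm3, 18 of the 19 rows of Mcm2 to Mcm7 thus lay above the 50th percentile. Among the other licensing factors, Gmnn, Orc6 and Cdt1 had no row at an unadjusted p under 0.05. Gmnn, which encodes geminin, the inhibitor of Cdt1, had its row at 18.3 (limma adjusted p = 0.913). The row of Orc6, a subunit of the origin recognition complex, lay at 28.4 (0.848), and Cdt1 had rows at 56.9, 53.6 and 5.45 with a smallest adjusted p of 0.580. Orc1, the largest subunit of that complex, had rows at 80.0 and 53.4.

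The promoters of these genes were searched for elements. The choice of genes did not use promoter letters. Many of these genes are known to be switched on by E2F, however, so their share of E2F-type letters is no independent finding. RefSeq promoter windows of the GRCm38.p6 build, 250 bases before to 50 after a transcription start, were at hand for 37 of the 45 genes. The E2F-type letters TTTGGCGC, TTTCCCGC, TTTGCCGC or TTTCGCGC, on either strand, were found in 14 of 37 genes (37.8%), against 704 of 27025 genes with a window (2.60%) and 1 of 27 mitosis genes (3.70%). Licensing genes held them most often, in 7 of 9. Polymerase and primase genes held them in 3 of 6, nucleotide supply genes in 0 of 5 and G1/S regulators in 0 of 2. The letters on opposite strands can overlap, as in Mcm5 and Mcm6, where they form an uninterrupted run. The CCAAT box, a site for NF-Y, was found in 21 of 37 (56.8%), in 21 of 27 mitosis genes (77.8%) and in 41.1% of all genes. The letters TTTGAA of the cell cycle homology element, known from promoters of mitosis genes, were found in 5 of 37 (13.5%), in 20 of 27 mitosis genes (74.1%) and in 20.2% of all genes. A match of letters is a description and not a measured binding site.

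The 5 licensing genes with E2F-type letters upstream of a start are shown because this step held the element most often. Each stretch has 92 bases, is written 5′ to 3′ on the strand of the gene and ends before the start, and capitals mark the E2F-type letters on either strand. The Cdc6 stretch lies at chr11:98907939-98908030 (plus strand), Mcm5 at chr8:75109286-75109377 (plus), Mcm6 at chr1:128359735-128359826 (minus), Mcm7 at chr5:138172031-138172122 (minus) and Orc1 at chr4:108579353-108579444 (plus).
Cdc6: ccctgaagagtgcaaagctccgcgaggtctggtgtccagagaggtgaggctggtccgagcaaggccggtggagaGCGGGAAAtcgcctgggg
Mcm5: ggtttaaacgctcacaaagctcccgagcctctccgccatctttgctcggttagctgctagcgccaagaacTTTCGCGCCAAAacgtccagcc
Mcm6: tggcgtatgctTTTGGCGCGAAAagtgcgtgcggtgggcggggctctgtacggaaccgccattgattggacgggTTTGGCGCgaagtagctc
Mcm7: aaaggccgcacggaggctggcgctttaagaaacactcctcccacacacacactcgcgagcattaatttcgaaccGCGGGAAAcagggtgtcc
Orc1: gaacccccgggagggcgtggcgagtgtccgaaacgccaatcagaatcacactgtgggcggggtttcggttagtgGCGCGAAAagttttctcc

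Genes with and without the element were set side by side in strength. Of the 14 genes that hold it, 3 had a row past the threshold, and of the 22 genes with a window but without it, 6 did. The 35 rows of the first had a median percentile of 77.1 and the 45 rows of the others 73.9. Among the genes printed above, Cdc6 passed, while Mcm5, Mcm6, Mcm7 and Orc1 did not.

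**Figure D2:**
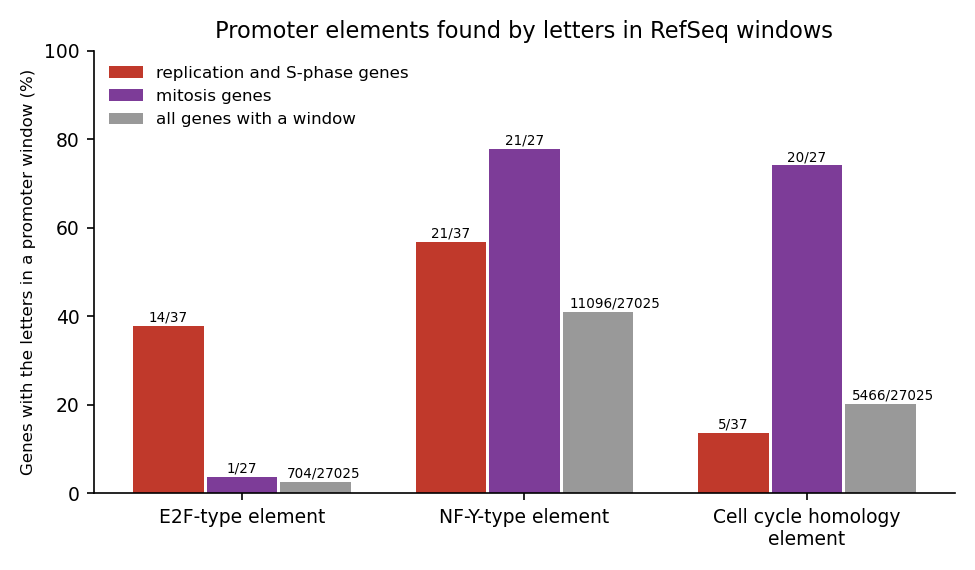
Bars give the percentage of genes (y axis) whose RefSeq promoter window holds the letters of each of 3 elements (x axis), for replication and S-phase genes, mitosis genes and all genes with a window, with gene counts above the bars. The E2F-type element is in 14 of 37 replication genes and 1 of 27 mitosis genes, and the cell cycle homology element in 5 of 37 and 20 of 27.

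Helicase activation had a median at percentile 88.8 over 9 rows of 4 genes, with 2 rows past the limma threshold and 6 at an unadjusted p under 0.05. Cdc45, which joins the MCM ring to form the moving helicase, passed in 1 of 2 rows (percentile 96.5, absolute t 4.65, limma adjusted p = 0.0366), while its other row lay at 34.8. The groups did not overlap in the called rows of Cdc45 and Gins2. Gins2, a subunit of the GINS complex of the same helicase, passed in 1 of 2 rows (percentile 95.7, absolute t 4.41, limma adjusted p = 0.0425), and its other row lay at 81.6. Both rows of Gins1, another GINS subunit, were close in strength at 90.5 and 88.8 but opposite in sign (smallest limma adjusted p = 0.0954). The groups did not overlap in the first. Mcm10, which helps start the forks, had rows at 92.1, 45.6 and 36.2 (smallest limma adjusted p = 0.0784).

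The 2 strongest rows of all belonged to DNA polymerases. Pole2, the second subunit of the leading-strand polymerase epsilon, had a row at percentile 98.4 (absolute t 5.62, limma adjusted p = 0.0216) and another at 30.9. Pold2, the second subunit of the lagging-strand polymerase delta, had a single row at percentile 98.1 (absolute t 5.41, limma adjusted p = 0.0234). These were the only called rows among 16 of this step, whose median was at 73.6, with 6 rows at an unadjusted p under 0.05. The catalytic subunits missed the threshold, with rows of Pold1 at 92.2 and 75.6 (smallest limma adjusted p = 0.0776), Pola1 at 89.7 and 79.9 (0.104) and Pole at 75.8 (0.310). The primase genes Prim1 and Prim2, whose products lay the RNA primers, had strongest rows at 79.6 and 66.7, and the other Prim1 row lay at 71.7. The 3 rows of Pola2, which anchors primase to polymerase alpha, lay at 66.1, 43.6 and 3.74.

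At the clamp, Pcna, which encodes the ring that holds polymerases on DNA, had a single row at percentile 95.3 (absolute t 4.30, limma adjusted p = 0.0459). Rfc5, a subunit of the loader that opens this ring, also had a single row, at 95.6 (absolute t 4.37, limma adjusted p = 0.0441). The groups did not overlap in either row. The other clamp loader genes did not follow, with rows of Rfc2 at 81.5, 79.2 and 18.8 (smallest limma adjusted p = 0.222), Rfc4 at 73.9 and 41.7 (0.338) and a strongest row of Rfc3 at 70.6 (0.387). Rpa1 and Rpa2 encode the proteins that coat single-stranded DNA, and their strongest rows lay at 54.2 and 79.9, with the other Rpa2 row at 12.5. Over the 13 rows of clamp, loader and single-strand binding the median was 70.6, with 2 called, 5 at an unadjusted p under 0.05 and 5 in the lower 50%. Fen1, the flap nuclease, and Lig1, the ligase that seals Okazaki fragments, had 3 rows between 82.1 and 90.1. All 3 were at an unadjusted p under 0.05 and 0 passed by limma (smallest adjusted p = 0.101).

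Nucleotide supply had the highest median among the steps with over 10 rows, at 89.3 over 13 rows, with 9 at an unadjusted p under 0.05. Among the smaller steps, Okazaki fragment joining (Fen1 and Lig1) had a median of 89.45 over 3 rows and helicase activation 88.85 over 9. The rows of nucleotide supply were widely spread, with a lower quartile of 48.2 and 4 of the 13 rows at or below it. Only 1 row passed the limma threshold. Rrm1, the large subunit of ribonucleotide reductase, had rows at 97.0, 91.5 and 83.4, the first past the threshold (absolute t 4.82, limma adjusted p = 0.0332). Rrm2, its small subunit and the one that is made in S phase, had 3 rows at 93.8, 93.5 and 93.1. Their limma adjusted p were 0.0612, 0.0640 and 0.0684. These 3 rows were within a percentile point of each other in strength but did not all have the same sign. Tk1, the thymidine kinase of S phase, had a row at 89.3 (limma adjusted p = 0.109). Tyms, which makes thymidylate, had 4 rows at 91.8, 39.6, 25.5 and 9.65. A further row names both Tyms and its pseudogene and was not counted (absolute t 3.51, limma adjusted p = 0.0849). Dut, which clears dUTP, had rows at 79.0 and 48.2.

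Among genes acting on chromatin behind the fork, Chaf1b, a subunit of the histone chaperone CAF-1, passed in 1 of 2 rows (percentile 95.5, absolute t 4.33, limma adjusted p = 0.0452), although the groups overlapped in it, and its other row lay at 68.4. Uhrf1, which brings the maintenance methylase to new DNA, lay just outside the threshold in its stronger row (percentile 94.5, limma adjusted p = 0.0530), with the other row at 77.3. Dnmt1, that methylase, had rows at 85.8, 77.2 and 36.7, and Ung, which removes uracil from DNA, a row at 3.31 (limma adjusted p = 0.987), the weakest of all 95. Over the 8 rows of this step the median was 77.2 and 3 were at an unadjusted p under 0.05. The G1/S regulators held the lowest median of the steps, 66.5 over 6 rows, with 0 past the limma threshold and 1 at an unadjusted p under 0.05, a row of the cyclin gene Ccne1 at 86.4. Ccne2, the other cyclin E gene, had a row at 74.9, and E2f1, an activator of S-phase genes, had rows at 70.2, 57.3 and 55.3. Differences between the steps were not tested.

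**Figure D3:**
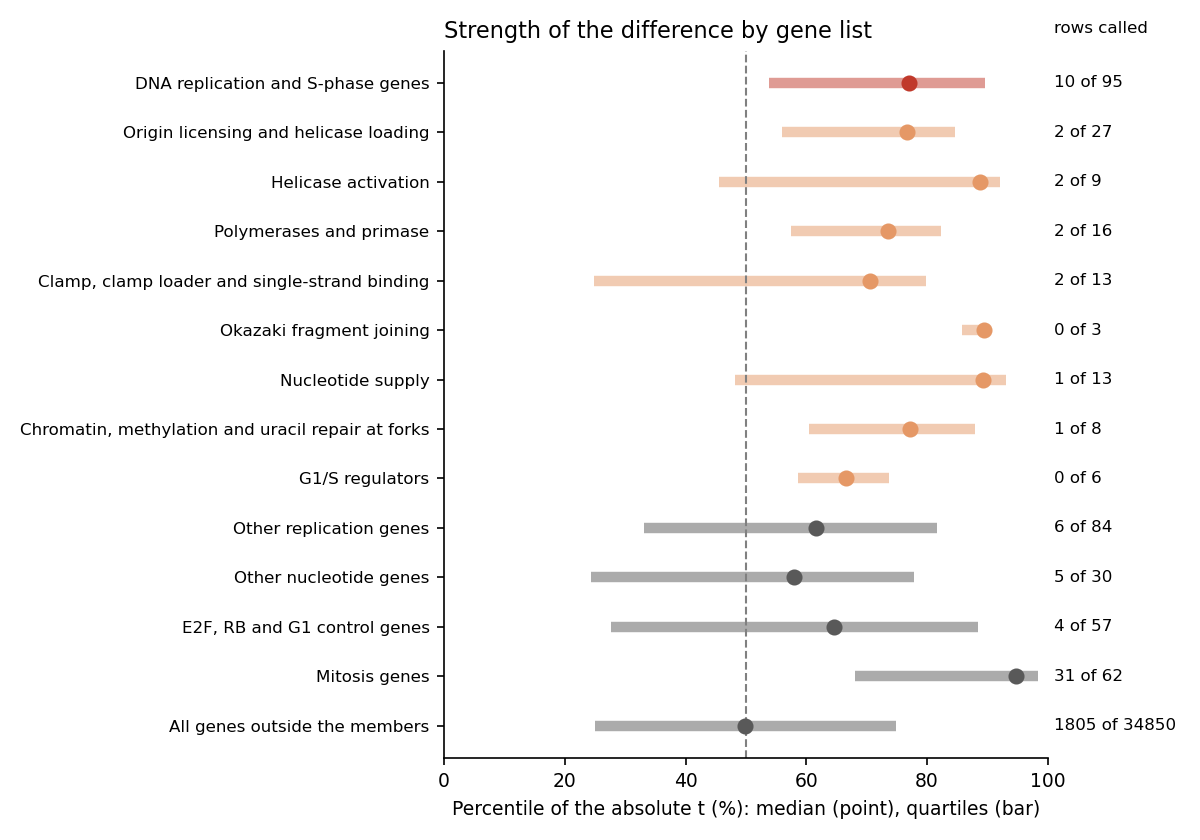
Points give the median and bars the quartiles of the percentile of the absolute t (x axis, percent) over the rows of each gene list (y axis), with the number of rows at a limma adjusted p under 0.05 at the right. All 8 steps of replication have medians above 66, mitosis genes lie higher at 94.7 and all genes outside the replication group at 49.9.

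To show the arrays behind these calls without level or direction, each array was placed on a scale where the wildtype mean of a row is 0 and its mutant mean is 1, on log2 values. The separation of the means is thus fixed by construction. These rows were chosen by their adjusted p, so a small spread within groups beside that separation follows from the choice. The positions describe where single arrays lie and do not test the calls. In the Pole2 row the mutants lay at 0.774, 1.32, 0.878, 0.887 and 1.14 (SD 0.224, n = 5) and the wildtypes at -0.108, 0.334, -0.172 and -0.0531 (SD 0.228, n = 4). In the Pold2 row the mutants lay at 0.852, 0.761, 1.13, 1.34 and 0.918 and the wildtypes at 0.196, 0.129, -0.293 and -0.0324. Both rows left a gap between the groups wider than the SD of either. In the Pcna row the gap was narrower, with the lowest mutant at 0.412 (replicate 5) and the highest wildtype at 0.214 (replicate 2). In the Mcm3 row mutant replicate 4 at 0.549 and wildtype replicate 1 at 0.483 were nearly level. In the Chaf1b row wildtype replicate 1, at 0.788, lay among the mutants and above mutant replicate 4 at 0.644, while the other wildtypes lay between -0.284 and -0.243. Over the 10 rows, wildtype replicate 1 (array 5) had the highest median position of the wildtypes (0.304, against -0.201 to 0.0382). Mutant replicate 4 (array 6) had the lowest of the mutants (0.752, against 0.909 to 1.24). By array number, median positions were 1.08, 1.24 and 1.09 in arrays 1, 3 and 4, all mutant. They were 0.304, 0.752 and 0.909 in arrays 5 to 7, and 0.0382, -0.201 and -0.0638 in arrays 8 to 10, all wildtype.

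**Figure D4:**
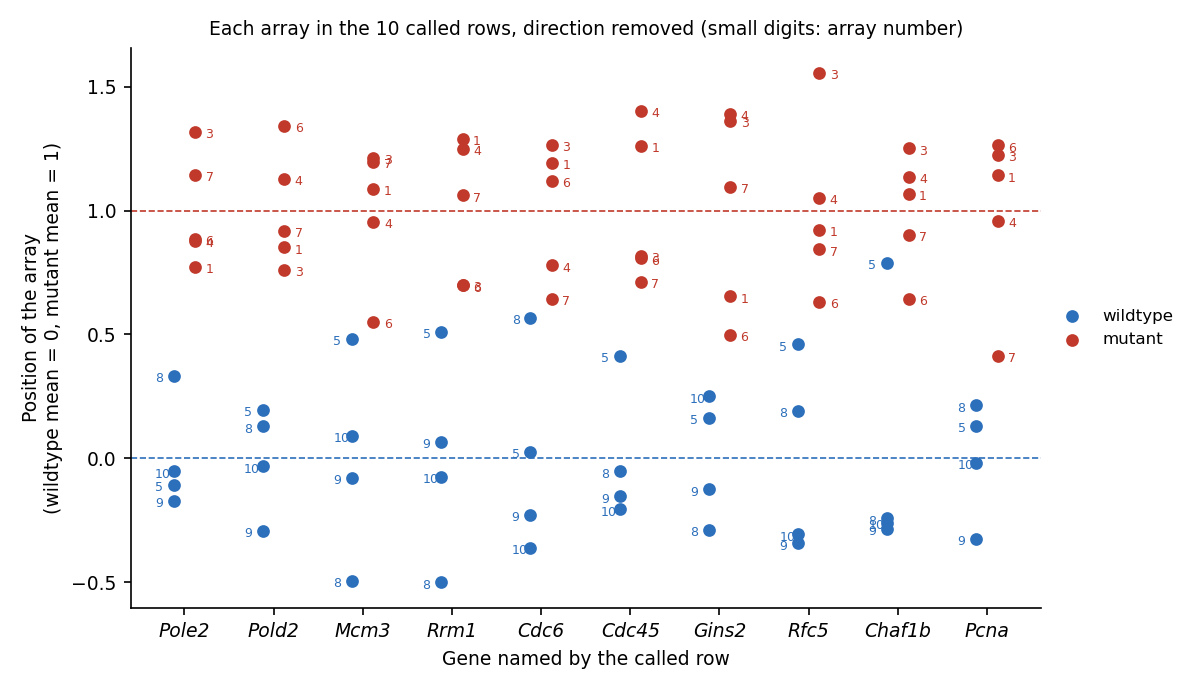
Each point is an array in 1 of the 10 called rows (x axis, gene named by the row), on a scale where the wildtype mean is 0 and the mutant mean is 1 (y axis, no unit), with the array number from the sample title beside it. Wildtype array 5 is closest to the mutants in 6 rows and lies among them only for Chaf1b, at 0.788.

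Array numbers in the titles were closely tied to the groups, with a mean of 4.2 in mutants and 8 in wildtypes. Arrays 1, 3 and 4 were all mutant and 8, 9 and 10 all wildtype, and the groups mixed only in 5 to 7. Effects of genotype and of array number thus largely cannot be told apart with these arrays. With array number as a covariate, 0 of 95 replication rows passed by limma and 20 were at an unadjusted p under 0.05 (21.1%, against 14.3% of other rows). Over other genes 0.0775% passed in that fit, and the median replication row lay at percentile 60.0. Single arrays also decided the calls. Without wildtype replicate 3, 0 replication rows passed, against 0.990% of other rows, and without wildtype replicate 4, 0 passed, against 1.02%. Each of those fits left 33 replication rows at an unadjusted p under 0.05 (34.7%), against 17.3% and 17.4% of other rows. Without mutant replicate 2 the row of Pold2 alone passed (against 1.77% of other rows), and without mutant replicate 3 that of Pole2 alone (against 1.76%). Without mutant replicate 1, 5 replication rows passed, against 3.51%, and without wildtype replicate 2, 5 passed, against 2.86%. The median percentile was steadier, between 72.8 and 78.1 over the 9 fits that left out an array. Of 19 other settings, Pole2 and Pold2 kept their calls in 14 each, Cdc6 in 12 and Pcna in 6.

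**Figure D5:**
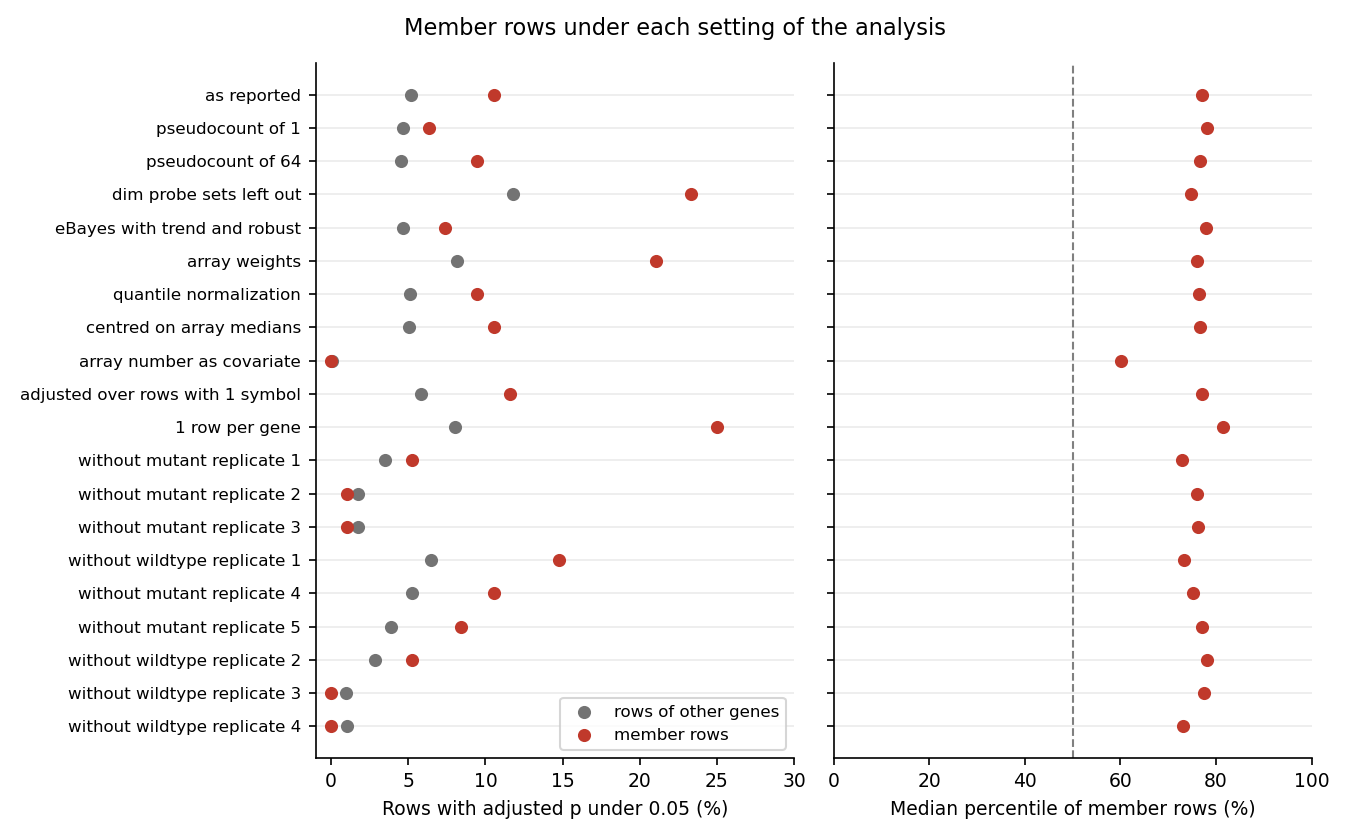
The left panel gives the percentage of rows with a limma adjusted p under 0.05 (x axis) under each setting (y axis), for replication rows and rows of other genes. The right panel gives the median percentile of the absolute t of replication rows, which lies between 60.0 with array number as a covariate and 81.5 with 1 row per gene.

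Replication and cell cycle genes outside the group were set beside it. A list of 38 other replication genes had 84 rows with a median at percentile 61.6. Of these rows 6 passed (7.14%, against 5.18% of all rows outside the replication group). At an unadjusted p under 0.05 there were 23 (27.4%, against 21.0%). The list was led by Top1, the topoisomerase ahead of the fork (limma adjusted p = 0.0183), and Orc5 of the origin recognition complex (0.0187). Next came Dbf4, the activator of the Cdc7 kinase (0.0225), and the polymerase epsilon subunit Pole4 (0.0283). Of 13 other nucleotide genes, 11 had 30 rows, with a median at percentile 58.05. Of these rows 5 passed (16.7%), 3 of them rows of the purine synthesis gene Paics (smallest limma adjusted p = 0.00105). At an unadjusted p under 0.05 there were 8 of the 30 (26.7%). The 57 rows of E2F, retinoblastoma and G1 control genes had a median at 64.55, with 22 at an unadjusted p under 0.05 (38.6%). Among the 57 rows 4 passed (7.02%). They were both rows of the S and G2 cyclin gene Ccna2 (smallest limma adjusted p = 0.0139) and rows of E2f8 (0.0257) and E2f2 (0.0301).

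Mitosis genes stood higher. Of 62 rows of 30 genes, 31 passed and the median lay at percentile 94.7, led by the spindle midzone gene Prc1 (limma adjusted p = 0.00142) and the mitotic kinase gene Plk1 (0.00348). With array number as a covariate the mitosis median lay at 91.3, where that of replication rows lay at 60.0, and 1 mitosis row passed. The difference between the lists was not tested.

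Marker rows of cells that a colon can hold had lower median percentiles than replication rows, but not lower values by every measure. Colon epithelium markers passed in 2 of 17 rows (11.8%), both of Cdx2, with a median at percentile 68.1, and the groups did not overlap in 4 (23.5%). T cell markers passed in 0 of 13 rows by limma (0 at an unadjusted p under 0.05, median 25.7), B and plasma cell markers in 0 of 8 (0, median 39.1) and macrophage markers in 0 of 11 (2, median 26.6). The rows of smooth muscle markers numbered 12, of which 0 passed and 5 had an unadjusted p under 0.05 (median 65.0), with groups that did not overlap in 3. Fibroblast markers passed in 1 of 13 rows (1, median 60.0) and enteric neuron and glia markers in 0 of 11 (3, median 68.2). Red blood cell precursor markers passed in 0 of 3 (0, median 68.1). Of rows of genes outside the replication group, 5.18% passed, 21.0% had an unadjusted p under 0.05 and 9.76% had groups that did not overlap. The median row of those genes lay at 49.9. The part of these cell types in the replication result was not tested. Marker levels were not used to check the tissue, since no level is given for a row name here.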

How the data were processed

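Per the submitters' processing notes, the authors made the deposited intensity values with Affymetrix Expression Console 1.1. The summary method was not given in the sources used here, and neither was the background correction. Medians of the 9 arrays lay between 53.8 and 54.7 and arrays correlated between 0.986 and 0.996, so no further normalization was applied. The table held 45101 probe sets, from which 64 controls were removed. Among the 45037 tested, 34945 had 1 gene symbol in the platform annotation, 932 several and 9160 none. All 44 gene symbols were found in the RefSeq gene table.

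Values were tested as log2(intensity + 16) by lmFit and eBayes of limma 3.58.1 (R 4.3.3), two-sided, on 7 residual degrees of freedom and 2.26 prior ones. The Benjamini-Hochberg adjustment ran over all 45037 probe sets and the threshold was 0.05. The test was checked on simulated data. The number of arrays limits the precision. The members, steps and other lists were chosen with earlier results of these data known, so counts are set beside those of other genes with no list test. Up to 5 genes per step with the smallest row p are described by every row, and further genes by their strongest rows. Up to 4 genes are named from other lists. Positions of arrays are (value minus wildtype mean) divided by (mutant mean minus wildtype mean). Alternatives were other pseudocounts, filters, variance models, normalizations, array number as a covariate, and leaving out each array.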

Additional observations from a re-analysis of the deposited data

Results flagged for a closer look

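In the Chaf1b row, wildtype replicate 1 lay far from the other wildtype arrays, at 0.788 on the scale from wildtype mean 0 to mutant mean 1, where the others lay between -0.284 and -0.243. Its gap was 0.961 of the range of the group, above Dixon's 95% value for 4 samples. The 10 called rows and the median position were examined in each group, and chance flags about 1 in 20 groups.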

How the results depend on the processing

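With array number as a covariate, the count over all probe sets was 30 in place of 2029, replication rows and genes called were 0 and 0, and the median percentile was 60.0. With array weights, 3267 probe sets and 20 replication rows of 17 genes passed, and with a pseudocount of 1, 6 rows of 6 genes. At an adjusted p under 0.1 there were 3926 probe sets and 22 rows of 18 genes. The median percentile was 74.7 without dim probe sets and 81.5 with 1 row per gene. Over the fits that left out 1 array, probe sets called ranged from 385 to 2577, replication rows from 0 to 14, their genes from 0 to 13, and the median percentile from 72.8 to 78.1. Of single replication rows under these settings, 1592 values kept their side of the threshold, 87 lost the call and 40 gained it, and no called row changed sign. Most of the 1592 belong to rows that were not called in the main fit, while all 87 losses fell on the 10 called rows. Those calls were kept in 14 of 19 settings at most (Pole2 and Pold2) and in 6 at least (Pcna). Causes were not tested. Dim rows and 9 arrays limit what could be called. No paired analysis was possible because the labels do not pair mutant with wildtype arrays and give only array numbers.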
